A study of Mus musculus with 12 samples.

Results

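The V1 sector of the vacuolar proton pump (V-ATPase) was described through 8 subunit genes, chosen by symbol: Atp6v1a, Atp6v1b2, Atp6v1c1, Atp6v1d, Atp6v1e1, Atp6v1f, Atp6v1g1 and Atp6v1h. They are 8 of the 56980 features counted, and all 8 were among the 12052 genes with enough counts to be tested. The rule used their symbols and no threshold on a measured value, though results of these data were known when they were chosen. RNA came from bone-marrow-derived macrophages (BMDM), which are mouse marrow cells turned into macrophages with the growth factor M-CSF. The 4 groups were Trem2 knockout (KO) cells given 25 nM bafilomycin A1 (BafA1), Trem2 KO cells given the solvent DMSO, wild-type (WT) cells given 25 nM BafA1 and WT cells given DMSO, each for 22 hours and each with 3 libraries. Every biological replicate pooled the bones of several mice (3 in knockout studies, per the labels), and all cells had been frozen as differentiated macrophages and thawed before treatment. Which part of Trem2 was removed is not stated in the labels, nor whether BafA1 and DMSO cultures of the same number came from the same pool.

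The V-ATPase uses ATP to move protons into lysosomes and endosomes. Its V1 sector sits in the cytosol and hydrolyses ATP, and its V0 sector is the ring in the membrane that carries the protons. In V1, the A and B subunits alternate in a head that turns the central stalk of D and F, the E and G subunits form peripheral stalks that hold the head still, and C and H connect the sectors and regulate whether they are joined. V1 can leave V0 and return, which switches the pump off and on. BafA1 binds the V0 ring and blocks proton transport, which raises lysosomal pH. Macrophages depend on the pump to digest what they take up, and the transcription factors TFEB, TFE3 and MITF are known to bind E-box sequences near many lysosomal genes, V-ATPase genes among them.

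The promoters of 3 members are shown because they belong to the gene with the highest level, the gene whose response differed most between the genotypes and a gene whose level the test did not separate by genotype. Each is the 250 bases before the gene's start, 5′ to 3′ on the gene's strand, from the RefSeq promoter table on build GRCm38.p6, which is not the GRCm39 build of the counts. Capitals mark the E-box CACGTG. Atp6v1a lies on the minus strand at chr16:44139260-44139509, Atp6v1d on the minus strand at chr12:78861639-78861888, and Atp6v1f on the plus strand at chr6:29467533-29467782.
Atp6v1a: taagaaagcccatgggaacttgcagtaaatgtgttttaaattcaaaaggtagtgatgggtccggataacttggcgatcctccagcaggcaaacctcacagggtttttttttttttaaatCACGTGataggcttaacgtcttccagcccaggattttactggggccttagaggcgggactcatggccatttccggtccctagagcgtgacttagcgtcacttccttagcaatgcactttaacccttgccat
Atp6v1d: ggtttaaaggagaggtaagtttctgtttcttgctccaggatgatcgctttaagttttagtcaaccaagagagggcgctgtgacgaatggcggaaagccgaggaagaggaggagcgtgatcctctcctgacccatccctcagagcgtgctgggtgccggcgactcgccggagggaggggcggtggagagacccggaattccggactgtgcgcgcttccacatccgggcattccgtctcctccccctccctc
Atp6v1f: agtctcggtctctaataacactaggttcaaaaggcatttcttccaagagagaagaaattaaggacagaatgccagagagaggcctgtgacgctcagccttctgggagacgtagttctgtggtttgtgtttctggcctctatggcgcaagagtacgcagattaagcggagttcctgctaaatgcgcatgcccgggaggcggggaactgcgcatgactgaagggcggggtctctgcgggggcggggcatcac

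The table held 4 of the 8 members, these and Atp6v1e1 (chr6:120822699-120822948, minus strand). Atp6v1b2, Atp6v1c1, Atp6v1g1 and Atp6v1h had no entry. CACGTG, which reads the same on both strands, was found in 1 of the 4 windows, that of Atp6v1a, 131 bases before the start, and in 6.86% of the 27025 genes of the table. TCACGTG, searched on both strands and containing CACGTG, was found in the same window only, and in 3.58% of all genes. The longer palindrome of the CLEAR element, described for lysosomal genes, was in none of the 4 windows and in 0.27% of all genes. A match is a description of letters, and binding was not measured.

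Libraries held between 4407466 and 7074860 estimated counts from the 3′ ends of mRNA. Such tags count transcript ends and do not grow with gene length, so levels in CPM (counts scaled to library size with TMM factors) can be set side by side between genes. Tag yield per transcript can still differ between genes, so orders and ratios of levels between genes describe counts and not transcript numbers. Trem2, the targeted gene, averaged 160 CPM ± 19.5 in Trem2 KO BafA1, 212 ± 11.04 in Trem2 KO DMSO, 401 ± 0.45 in WT BafA1 and 588 ± 27.2 in WT DMSO (SD, n = 3 each). It was lower in every KO library than in any WT library, and a 3′ tag outside the deleted part could still be counted. Macrophage markers were abundant: the summed level of the 7 chosen, of which Lyz2 made up the most, spanned 5362 to 6723 CPM in Trem2 KO BafA1, 7325 to 8664 in Trem2 KO DMSO, 5335 to 5865 in WT BafA1 and 7005 to 7589 in WT DMSO. Markers of other cells also moved with the groups. The sum of 10 granulocyte markers spanned 67.3 to 119 CPM in Trem2 KO BafA1, 376 to 656 in Trem2 KO DMSO, 44.5 to 56.5 in WT BafA1 and 145 to 164 in WT DMSO, while its defining gene Ly6g was at 0 in Trem2 KO BafA1 and WT DMSO and had at most 6.61 counts in any library. The sum of 5 cell-cycle markers spanned 28.4 to 33.3 CPM in Trem2 KO BafA1, 34.2 to 45.7 in Trem2 KO DMSO, 84.6 to 107 in WT BafA1 and 414 to 433 in WT DMSO. Osteoclasts are a cell type rich in V-ATPase. In the same 4 groups their 7 markers summed to 9.82 to 12.2, 15.97 to 31.9, 19.9 to 27.3 and 54.7 to 67.7 CPM. Oscar was at 0 in all but the WT DMSO group and Calcr at 0 in both WT groups. This sum mixes osteoclast markers that moved in opposite directions. Of 5 tested, BafA1 raised 1 and lowered 4 in WT, and raised 1 and lowered 3 in Trem2 KO (edgeR adjusted p under 0.05). Over all genes tested, BafA1 raised 21.6% and lowered 25.3% in WT, and raised 19.8% and lowered 20.7% in Trem2 KO. Ctsk was the gene that rose, with log2 fold changes of 0.90 in WT and 0.72 in Trem2 KO. It averaged 13.5 CPM of a mean sum of 24.5 in WT BafA1. Dcstamp averaged 32.9 CPM of a mean sum of 61.6 in WT DMSO. The part of these markers in the results below was not tested, and in bulk RNA fewer cells of a type and less RNA per cell cannot be told apart.

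All 8 members were expressed at more than 160 CPM in every library. Atp6v1a, the catalytic subunit, was the most abundant member in each group, with means of 2263 CPM ± 194 in Trem2 KO BafA1, 1911 ± 70.0 in Trem2 KO DMSO, 1897 ± 109 in WT BafA1 and 1350 ± 79.5 in WT DMSO (SD, n = 3 each). Atp6v1h, which regulates the joined pump, was the least abundant in each group, with means of 317 ± 11.4, 217 ± 30.0, 327 ± 9.17 and 169 ± 2.26 CPM in those 4 groups. Atp6v1d stood at rank 7 in each. The middle of the order changed with treatment. Atp6v1b2, the nucleotide-binding partner of the catalytic subunit, stood at rank 2 in both DMSO groups, and stood at rank 5 in Trem2 KO BafA1 and rank 4 in WT BafA1, where Atp6v1f was at rank 2. Neighbours whose libraries overlapped were Atp6v1g1 and Atp6v1c1 in Trem2 KO BafA1, Atp6v1f, Atp6v1c1, Atp6v1g1 and Atp6v1e1 in Trem2 KO DMSO, Atp6v1g1 and Atp6v1b2 in WT BafA1, and Atp6v1e1, Atp6v1g1 and Atp6v1c1 in WT DMSO, so the order within these runs does not exceed the spread.

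**Figure D1:**
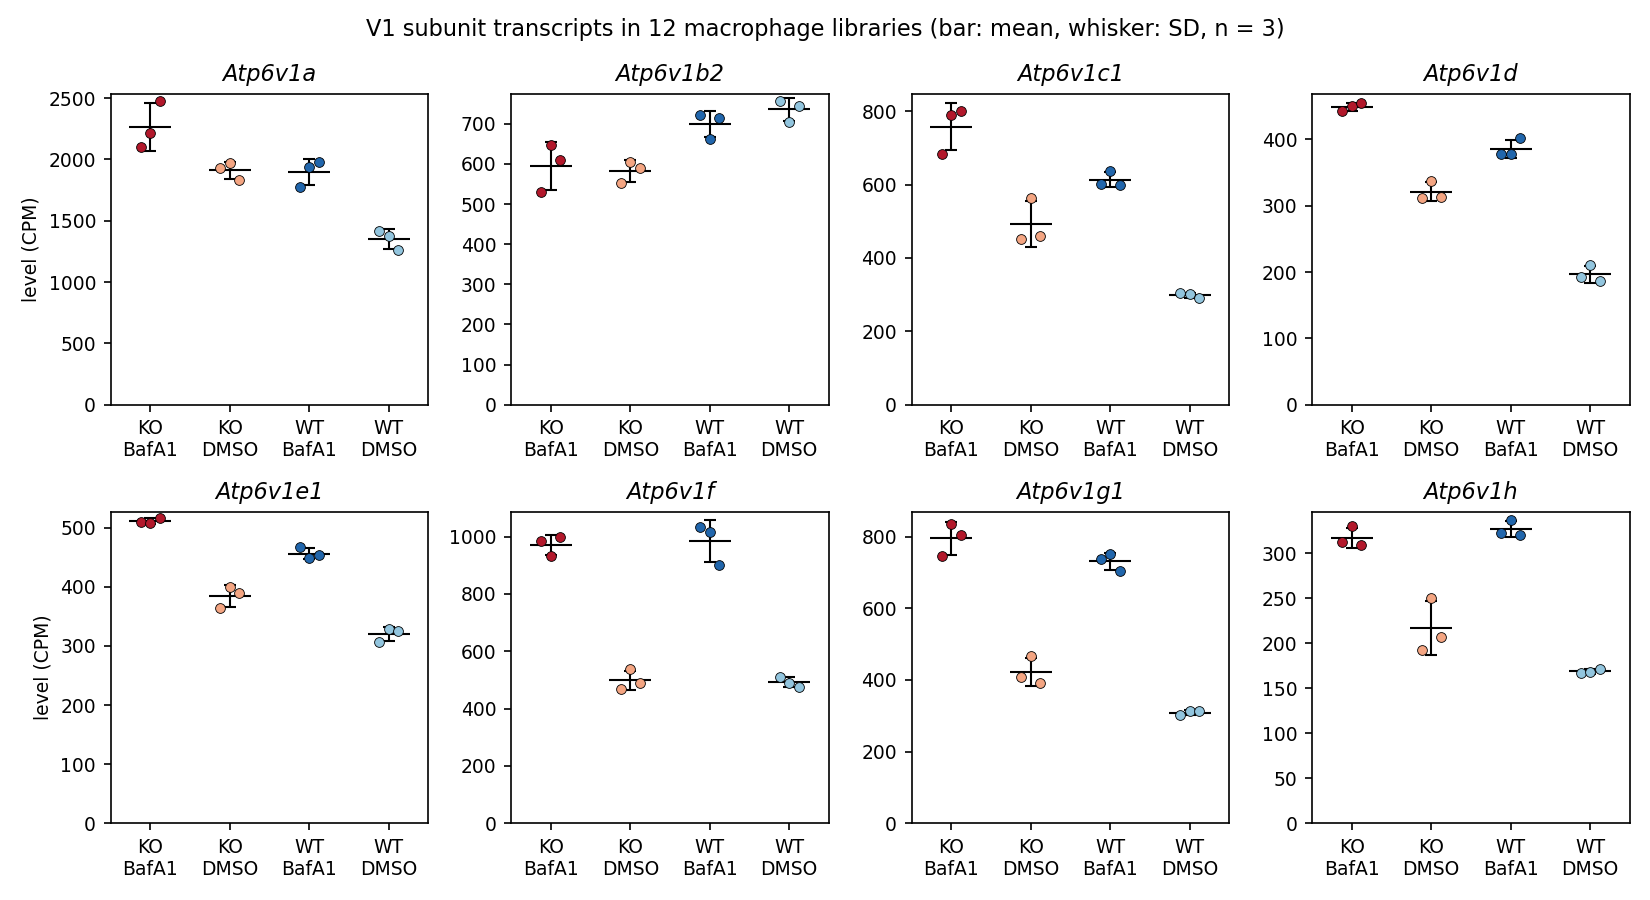
Level of each V1 gene in CPM (vertical axis, starting at 0) in the 12 libraries, with points for libraries, a bar for the mean and whiskers for the SD of 3. BafA1 libraries lie above DMSO libraries of the same genotype for 7 genes, and for Atp6v1b2 they overlap.

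The members are the forms found in most tissues, and the tissue-restricted forms were nearly silent. Atp6v1c2 and Atp6v1e2 had 0 counts in all 12 libraries, which allows a level of up to 0.42 to 0.69 CPM per library (3 counts). Atp6v1b1, the form of kidney intercalated cells, and Atp6v1g3 had at most 1 count in any library. Atp6v1g2, known from neurons, averaged 1.27 CPM ± 0.49 in Trem2 KO BafA1, 2.30 ± 1.04 in Trem2 KO DMSO, 2.29 ± 0.34 in WT BafA1 and 2.20 ± 0.46 in WT DMSO, and it did not pass the test in any comparison. Near-identical transcripts took few counts from the members. Gm9349, a copy of Atp6v1f, had at most 5.5 counts in a library, Gm12344 and Gm13453, copies of Atp6v1g1, at most 14.2 and 26.1, and Rgs20, which overlaps Atp6v1h on the other strand, at most 2, never more than 0.513% of the member's own count.

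The first comparison asked how the V1 genes of WT macrophages respond when the pump is blocked. BafA1 raised 7 of the 8 members and lowered 0, and Atp6v1b2 did not pass the test (edgeR quasi-likelihood test, Benjamini-Hochberg adjusted p under 0.05 over all genes). The drug changed much of the transcriptome: 46.9% of all genes tested passed, 21.6% higher and 25.3% lower. The median log2 fold change was 0.96 over the 8 members and -0.04 over all genes. No BafA1 library overlapped a DMSO library for any of the 7, which was so for 56% of all genes tested, 26.2% with BafA1 higher. Of the 7 macrophage markers 6 fell with BafA1 in WT and Cd68 rose (median -1.12): Fcgr1 averaged 3.03 CPM in WT BafA1 and 47.5 CPM in WT DMSO, and Itgam 148 CPM in WT BafA1 and 418 CPM in WT DMSO. Their part in the V1 changes was not tested.

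In the head, the catalytic and the nucleotide-binding subunit parted. Atp6v1a had 1773, 1942 and 1976 CPM in WT BafA1, against 1416, 1373 and 1262 CPM in WT DMSO, a log2 fold change of 0.49 (SE 0.078, edgeR adjusted p = 1.6e-05). Atp6v1b2 had 723, 662 and 714 CPM in WT BafA1, against 758, 704 and 745 CPM in WT DMSO, a log2 fold change of -0.07 (SE 0.077, adjusted p = 0.46, 95% interval -0.23 to 0.09). Libraries of the 2 treatments overlapped for Atp6v1b2, and its interval lies below the whole interval of Atp6v1a, 0.33 to 0.65.

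Both genes of the central stalk, which turns inside the head, rose by similar amounts, 1.96-fold for Atp6v1d and 2.00-fold for Atp6v1f. Atp6v1d had 377, 378 and 402 CPM in WT BafA1, against 192, 211 and 186 CPM in WT DMSO (log2 fold change 0.97, SE 0.071, edgeR adjusted p = 1.4e-10). Atp6v1f had 1034, 1017 and 900 CPM in WT BafA1, against 512, 490 and 475 CPM in WT DMSO (1.00, SE 0.075, adjusted p = 2.1e-10). Every treated library lay far above every control library for both.

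The peripheral stalk genes, which form the stator, rose by unequal amounts. Atp6v1g1 showed the largest change of the 8, with 738, 750 and 705 CPM in WT BafA1 against 301, 312 and 312 CPM in WT DMSO, which is 2.37-fold (log2 1.24, SE 0.076, edgeR adjusted p = 7e-12). Atp6v1e1, its partner in each stalk, had 467, 448 and 454 CPM in WT BafA1, against 307, 328 and 326 CPM in WT DMSO, which is 1.42-fold (log2 0.51, SE 0.067, adjusted p = 1.1e-06). The intervals of these fold changes, 1.09 to 1.40 and 0.37 to 0.65 on the log2 scale, do not meet. Of the 2 connecting subunits, Atp6v1c1 had 602, 636 and 600 CPM in WT BafA1, against 303, 302 and 291 CPM in WT DMSO (1.04, SE 0.085, adjusted p = 8.3e-10). Atp6v1h had 323, 338 and 321 CPM in WT BafA1, against 167, 169 and 171 CPM in WT DMSO (0.95, SE 0.082, adjusted p = 1.9e-09). These 7 calls were kept in every alternative setting and without any single library.

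The same question in Trem2 KO macrophages gave the same 7 genes higher and 0 lower, against 40.6% of all genes that passed, 19.8% higher and 20.7% lower. The median log2 fold change of the members was 0.52, and that of all genes 0.00. Libraries did not overlap between treatments for the 7, and for 47.7% of all genes tested, 23.6% with BafA1 higher. Here too 6 of 7 macrophage markers fell (median -1.24), with Fcgr1 at 5.08 CPM in Trem2 KO BafA1 and 69.6 CPM in Trem2 KO DMSO, and their part was not tested. The largest changes were in Atp6v1f and Atp6v1g1. Atp6v1f had 984, 933 and 1001 CPM in Trem2 KO BafA1, against 469, 537 and 488 CPM in Trem2 KO DMSO (log2 fold change 0.96, SE 0.075, edgeR adjusted p = 7.9e-10). Atp6v1g1 had 745, 836 and 805 CPM in Trem2 KO BafA1, against 409, 467 and 391 CPM in Trem2 KO DMSO (0.91, SE 0.075, adjusted p = 1.8e-09). Treated and control libraries were well apart for both.

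The connecting subunits and the rotor subunit Atp6v1d changed less in Trem2 KO. Atp6v1c1 had 684, 789 and 800 CPM in Trem2 KO BafA1, against 452, 565 and 459 CPM in Trem2 KO DMSO (log2 fold change 0.62, SE 0.084, edgeR adjusted p = 2.8e-06). Atp6v1h had 313, 330 and 309 CPM in Trem2 KO BafA1, against 192, 250 and 207 CPM in Trem2 KO DMSO (0.55, SE 0.082, adjusted p = 1.1e-05). Replicate 2 was the highest of the 3 Trem2 KO DMSO libraries for all 8 members, and had the highest mean z-score of the members in its group (-0.12, against -0.59 and -0.47). Atp6v1d had 442, 450 and 455 CPM in Trem2 KO BafA1, against 312, 338 and 314 CPM in Trem2 KO DMSO (0.48, SE 0.070, adjusted p = 7.3e-06), with no overlap.

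Atp6v1e1 had 510, 508 and 516 CPM in Trem2 KO BafA1, against 365, 400 and 390 CPM in Trem2 KO DMSO (log2 fold change 0.41, SE 0.067, edgeR adjusted p = 3.2e-05). The catalytic subunit showed the smallest increase that passed. Atp6v1a had 2099, 2212 and 2477 CPM in Trem2 KO BafA1, against 1933, 1967 and 1832 CPM in Trem2 KO DMSO (0.24, SE 0.077, adjusted p = 0.015). This call was lost without Trem2 KO DMSO replicate 3 (0.22, adjusted p = 0.052) and without Trem2 KO BafA1 replicate 3 (0.18, adjusted p = 0.077). Atp6v1b2 again did not pass, with 530, 647 and 609 CPM in Trem2 KO BafA1 against 552, 604 and 590 CPM in Trem2 KO DMSO (0.03, SE 0.077, adjusted p = 0.78, 95% interval -0.13 to 0.19).

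**Figure D2:**
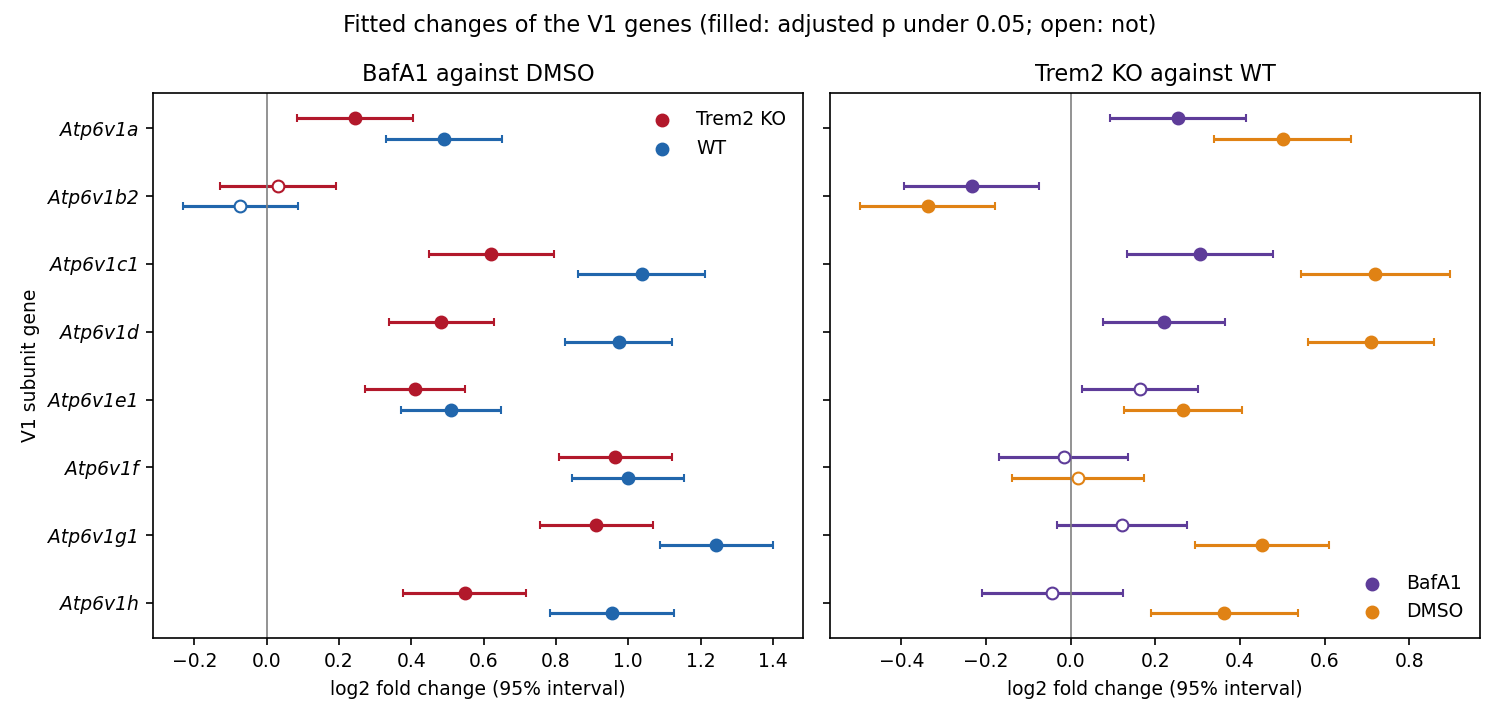
Fitted log2 fold changes with 95% intervals (horizontal axis) of the 8 V1 genes, for BafA1 against DMSO in each genotype (left) and for Trem2 KO against WT in each treatment (right). Filled points passed an adjusted p of 0.05; 7 genes are filled in both genotypes on the left, and on the right 7 are filled in DMSO and 4 in BafA1.

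Whether the response itself differed between the genotypes was tested as an interaction in the same fit. The log2 response was smaller in Trem2 KO than in WT for 3 members and larger for 0, against 8.81% of all genes that passed, 4.88% with a larger and 3.93% with a smaller value. Atp6v1d differed by -0.49 (SE 0.0995, edgeR adjusted p = 0.0031), with responses of 0.48 in Trem2 KO and 0.97 in WT. It passed in every alternative and without any single library, with adjusted p of at most 0.012. Atp6v1c1 differed by -0.42 (SE 0.119, adjusted p = 0.031) and Atp6v1h by -0.41 (SE 0.116, adjusted p = 0.031). The difference of Atp6v1c1 was -0.32 and that of Atp6v1h -0.30 without Trem2 KO DMSO replicate 2, and neither then passed. With WT DMSO replicate 2 or WT BafA1 replicate 2 left out, both also missed the threshold. Single libraries that ended 1 of these calls were Trem2 KO BafA1 replicate 1 for Atp6v1c1, and Trem2 KO BafA1 replicate 3, WT BafA1 replicate 1 and WT DMSO replicate 1 for Atp6v1h.

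Atp6v1g1 lay just outside the threshold (-0.33, SE 0.106, edgeR adjusted p = 0.053) and passed with RLE factors (adjusted p = 0.042), DESeq2 (0.017), limma-voom (0.044) and a filter of 10 CPM in 3 libraries (0.038), and without Trem2 KO BafA1 replicate 2 (0.03) or Trem2 KO DMSO replicate 3 (0.023). Atp6v1f, the other rotor gene, had almost the same response in both genotypes, 0.96 in Trem2 KO and 1.00 in WT, with a difference of -0.03 (95% interval -0.25 to 0.18, adjusted p = 0.89). The difference was -0.25 for Atp6v1a (adjusted p = 0.17), -0.10 for Atp6v1e1 (0.56) and 0.10 for Atp6v1b2 (0.62). The cell-cycle markers also differed in response, with all 5 higher in this contrast (median 1.62), against 4.88% of all genes. All 5 fell with BafA1 in WT (median -2.32), while in Trem2 KO 2 fell and the others did not pass (median -0.23). Their sum averaged 40.4 CPM in Trem2 KO DMSO and 427 CPM in WT DMSO. The part of these markers in the values above was not tested.

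The 2 comparisons of genotypes asked what the loss of Trem2 does to these genes without and with the drug. In DMSO, 6 members were higher in Trem2 KO and 1 was lower, against 30.3% of all genes that passed, 13.8% higher and 16.5% lower, with a median of 0.41 over the members and -0.01 over all genes. From the library values given above, the largest differences were in Atp6v1c1 (log2 0.72, SE 0.085, edgeR adjusted p = 7.6e-07) and Atp6v1d (0.71, SE 0.072, adjusted p = 7.5e-08), which correspond to 1.65-fold and 1.64-fold. Atp6v1a was 1.42-fold higher (log2 0.50, adjusted p = 2.9e-05). Its Trem2 KO DMSO libraries, 1832 to 1967 CPM, lay inside the range of the WT BafA1 libraries, 1773 to 1976 CPM. Atp6v1g1 (0.45, adjusted p = 7.3e-05), Atp6v1h (0.36, adjusted p = 0.0019) and Atp6v1e1 (0.26, adjusted p = 0.0041) were higher too, each with no overlap between genotypes (as in 41.9% of all genes tested, 19.7% with Trem2 KO higher), and Atp6v1e1 missed the threshold with no filter on low counts (adjusted p = 0.051).

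Atp6v1b2 went the other way: at 552, 604 and 590 CPM in Trem2 KO DMSO, against 758, 704 and 745 CPM in WT DMSO, it was lower in Trem2 KO by -0.34 on the log2 scale (SE 0.077, edgeR adjusted p = 0.0017). It was the only member that was lower, and it kept this call without any single library. Atp6v1f did not pass, with 469, 537 and 488 CPM in Trem2 KO DMSO and 512, 490 and 475 CPM in WT DMSO (0.02, 95% interval -0.14 to 0.17, adjusted p = 0.89). Trem2 KO DMSO also held more granulocyte marker RNA than WT DMSO and less cell-cycle marker RNA, in the ranges given above. Of the macrophage markers 3 were higher and 2 lower in Trem2 KO DMSO, with Itgam at 165 CPM, against 418 CPM in WT DMSO, and Mertk at 188 CPM, against 98.4 CPM in WT DMSO. The part of these markers was not tested.

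Under BafA1 the genotypes were closer. Here 3 members were higher in Trem2 KO and 1 lower, against 26.7% of all genes that passed, 12.5% higher and 14.2% lower, and the medians were 0.14 for the members and 0.01 for all genes. Atp6v1c1 (log2 0.30, SE 0.083, edgeR adjusted p = 0.0091), Atp6v1a (0.25, SE 0.077, adjusted p = 0.018) and Atp6v1d (0.22, SE 0.069, adjusted p = 0.022) were higher and Atp6v1b2 was lower (-0.23, SE 0.077, adjusted p = 0.027). Only Atp6v1c1 kept its call without any single library. Without WT BafA1 replicate 1 it alone was left, and without Trem2 KO BafA1 replicate 3 both Atp6v1a and Atp6v1d missed the threshold. Atp6v1d also missed it without WT BafA1 replicate 2, and Atp6v1b2 without Trem2 KO BafA1 replicate 1 or WT BafA1 replicate 3. Atp6v1e1 (0.16, adjusted p = 0.07), Atp6v1g1 (0.12, 0.24), Atp6v1f (-0.02, 0.89) and Atp6v1h (-0.04, 0.73) did not pass. Atp6v1h libraries spanned 309 to 330 CPM in Trem2 KO BafA1 and 321 to 338 CPM in WT BafA1, and overlapped. Libraries of the genotypes did not overlap for 5 members, and for 40.9% of all genes tested, 19.5% with Trem2 KO higher. Itgam averaged 59.3 CPM in Trem2 KO BafA1 and 148 CPM in WT BafA1, and Mertk 60.8 CPM in Trem2 KO BafA1 and 28.9 CPM in WT BafA1. Their part was not tested.

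Because subunits of 1 complex moved by different amounts, each member's share of the summed V1 counts was computed within each library, where scaling between libraries has no effect. The 8 members together reached 6662 CPM ± 334 in Trem2 KO BafA1, 4828 ± 260 in Trem2 KO DMSO, 6094 ± 69.1 in WT BafA1 and 3872 ± 94.9 in WT DMSO (SD, n = 3 each). Shares were tested with a two-sided exact permutation test over the 12 libraries, within genotype for the drug and within treatment for the genotype. It has 400 arrangements, a smallest possible p of 0.005, and Benjamini-Hochberg adjustment over 16 tests.

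With BafA1 the mix shifted away from the head. The share of Atp6v1a was lower by -4.71 percentage points (adjusted p = 0.011): it was 33.9% ± 1.39 in Trem2 KO BafA1 and 39.6% ± 1.498 in Trem2 KO DMSO, and 31.1% ± 1.62 in WT BafA1 and 34.9% ± 1.22 in WT DMSO. The share of Atp6v1b2 was lower by -5.33 points (adjusted p = 0.011), at 8.93% ± 0.64 in Trem2 KO BafA1 and 12.1% ± 0.49 in Trem2 KO DMSO, and 11.5% ± 0.67 in WT BafA1 and 19.02% ± 0.84 in WT DMSO. Atp6v1f gained 3.87 points and Atp6v1g1 3.61 (exact permutation test, adjusted p = 0.011 each), Atp6v1c1 gained 1.77 (0.016) and Atp6v1h 0.65 (0.022). These differences average both genotypes. In Trem2 KO alone the treatments overlapped for Atp6v1c1 and Atp6v1h, and in WT alone they did not. The shares of Atp6v1d (0.68 points, adjusted p = 0.053) and Atp6v1e1 (-0.54 points, 0.055) did not pass.

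Between the genotypes, Atp6v1a held a share larger by 3.78 points in Trem2 KO and Atp6v1b2 one smaller by -4.75 points (exact permutation test, adjusted p = 0.011 each). Atp6v1c1 (1.87 points, adjusted p = 0.011) and Atp6v1d (1.00 points, 0.016) held larger shares and Atp6v1f a smaller one (-1.96 points, 0.016). These values average both treatments, and in BafA1 alone the genotypes overlapped for Atp6v1d and Atp6v1f. Atp6v1e1, Atp6v1g1 and Atp6v1h did not pass (adjusted p = 0.8, 0.22 and 0.26). Head subunits A and B stand in equal number in the assembled pump, but their counts did not, and tag yield may differ between these genes. The ratio of Atp6v1a to Atp6v1b2 counts was 3.96, 3.42 and 4.07 in Trem2 KO BafA1, 3.504, 3.26 and 3.10 in Trem2 KO DMSO, 2.45, 2.93 and 2.77 in WT BafA1, and 1.87, 1.95 and 1.69 in WT DMSO. The ratio was higher in every Trem2 KO library than in any WT library, the 2 WT groups did not overlap, and the 2 Trem2 KO groups did.

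**Figure D3:**
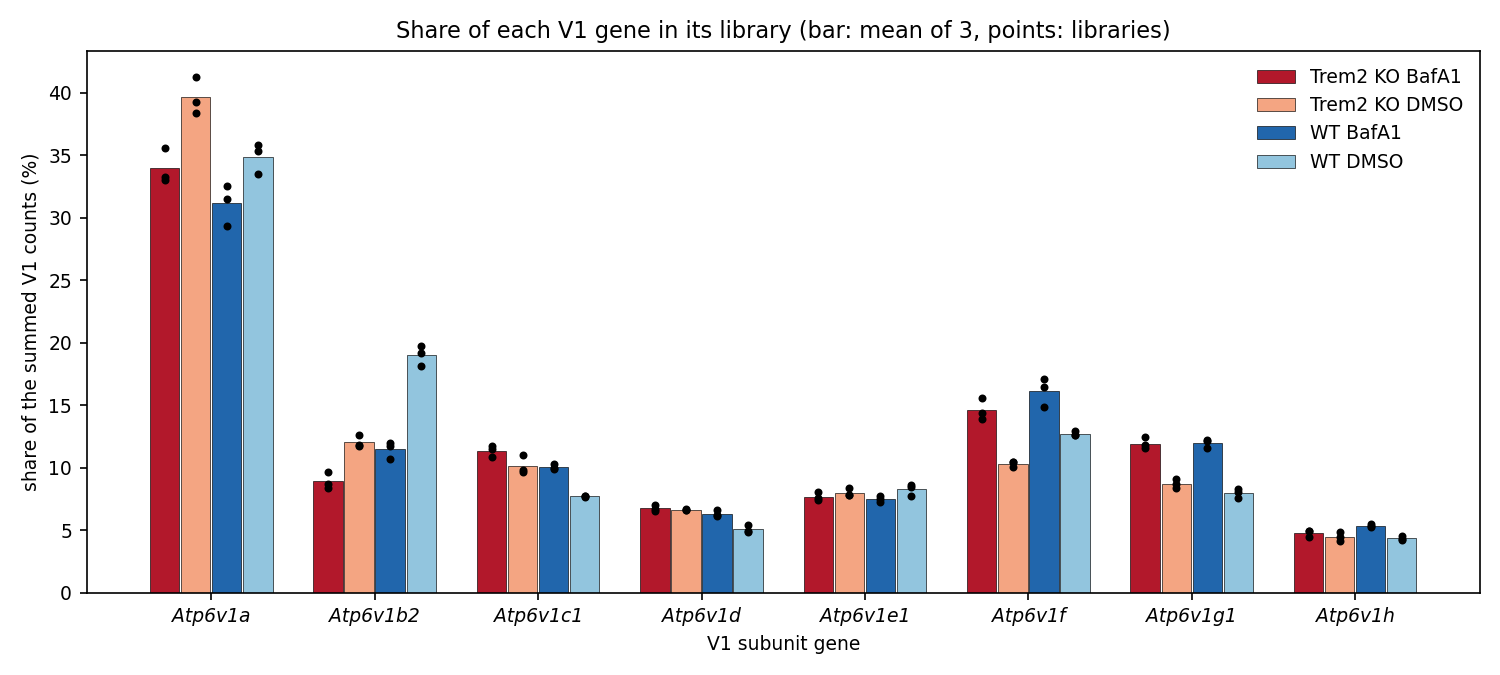
Share of each V1 gene in the summed counts of the 8 genes (vertical axis, percent, starting at 0), with bars for the mean of 3 libraries and points for libraries. Atp6v1b2 takes 19.02% in WT DMSO and 8.93% in Trem2 KO BafA1, the highest and lowest of its 4 groups.

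The V0 genes, which encode the sector whose ring BafA1 binds, were set beside the V1 genes. Of 10 named, 8 were tested. Over all genes tested, 46.9% passed with BafA1 in WT, 21.6% higher, and 40.6% in Trem2 KO, 19.8% higher. In WT, 6 rose with BafA1 and 0 fell (median log2 fold change 0.64), among them Atp6v0d1, which links the ring to the V1 stalk (1.04, SE 0.079), Atp6v0c, the main ring subunit and part of the BafA1 binding site (0.96, SE 0.075), and Atp6v0b, another ring subunit (0.71, SE 0.074). In Trem2 KO, 4 rose and 2 fell (median 0.33), and the genes that fell encode forms of the large membrane subunit a, Atp6v0a1 (-0.37, edgeR adjusted p = 0.00099) and Tcirg1 (-0.26, adjusted p = 0.012). The response was smaller in Trem2 KO for Atp6v0d2 (-0.69, adjusted p = 0.00057), Atp6v0c (-0.49, 0.0048) and Atp6v0d1 (-0.42, 0.019). The V1 to V0 ratio of summed CPM was 1.43 ± 0.049 in Trem2 KO BafA1 and 1.36 ± 0.040 in Trem2 KO DMSO, whose libraries overlapped, and 1.27 ± 0.031 in WT BafA1 and 1.35 ± 0.027 in WT DMSO, whose libraries did not overlap (SD, n = 3 each).

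Between genotypes, 5 V0 genes were higher and 1 lower in Trem2 KO in DMSO (median 0.31), and 2 were higher and 2 lower in BafA1 (median 0.01). Over all genes tested, 30.3% passed between genotypes in DMSO and 26.7% in BafA1. The accessory proteins Atp6ap1 and Atp6ap2, which bind the membrane sector, rose in both genotypes, by 0.32 and 0.66 in Trem2 KO and by 0.46 and 0.63 in WT. Their changes differed little between genotypes (edgeR adjusted p = 0.47 and 0.9 for the difference, which does not show that they were equal). Of 4 genes listed as V0 assembly factors, 4 rose with BafA1 in Trem2 KO and 2 in WT. Of all genes tested, 19.8% were higher with BafA1 in Trem2 KO and 21.6% in WT. In WT, Tmem199 reached 1.05 (SE 0.122) and Ccdc115 0.45 (SE 0.077). The response of Ccdc115 was larger in Trem2 KO, at 0.83 (difference 0.38, adjusted p = 0.036).

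Genes for the joining and release of V1 did not move as 1 block. Of 8 tested, 2 rose and 4 fell with BafA1 in Trem2 KO, and 3 rose and 4 fell in WT. Over all genes tested, 40.6% passed with BafA1 in Trem2 KO and 46.9% in WT. Dmxl2 and Wdr7, which form rabconnectin complexes that promote the joining of V1 and V0, rose by 0.48 and 0.71 in Trem2 KO and by 0.59 and 1.04 in WT. Dmxl1, the relative of Dmxl2, fell by 0.74 in Trem2 KO and by 0.44 in WT. The largest change of the list was in Rogdi, which fell in Trem2 KO (-1.01, edgeR adjusted p = 0.0069) and in WT (-1.55, 0.00011). Its level was low, with means of 2.69 CPM in Trem2 KO BafA1, 5.48 in Trem2 KO DMSO, 1.89 in WT BafA1 and 5.68 in WT DMSO. Oxr1 and Ncoa7, whose TLDc proteins can detach V1 from V0, fell by 0.26 and 0.28 in Trem2 KO and by 0.55 and 0.40 in WT.

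**Figure D4:**
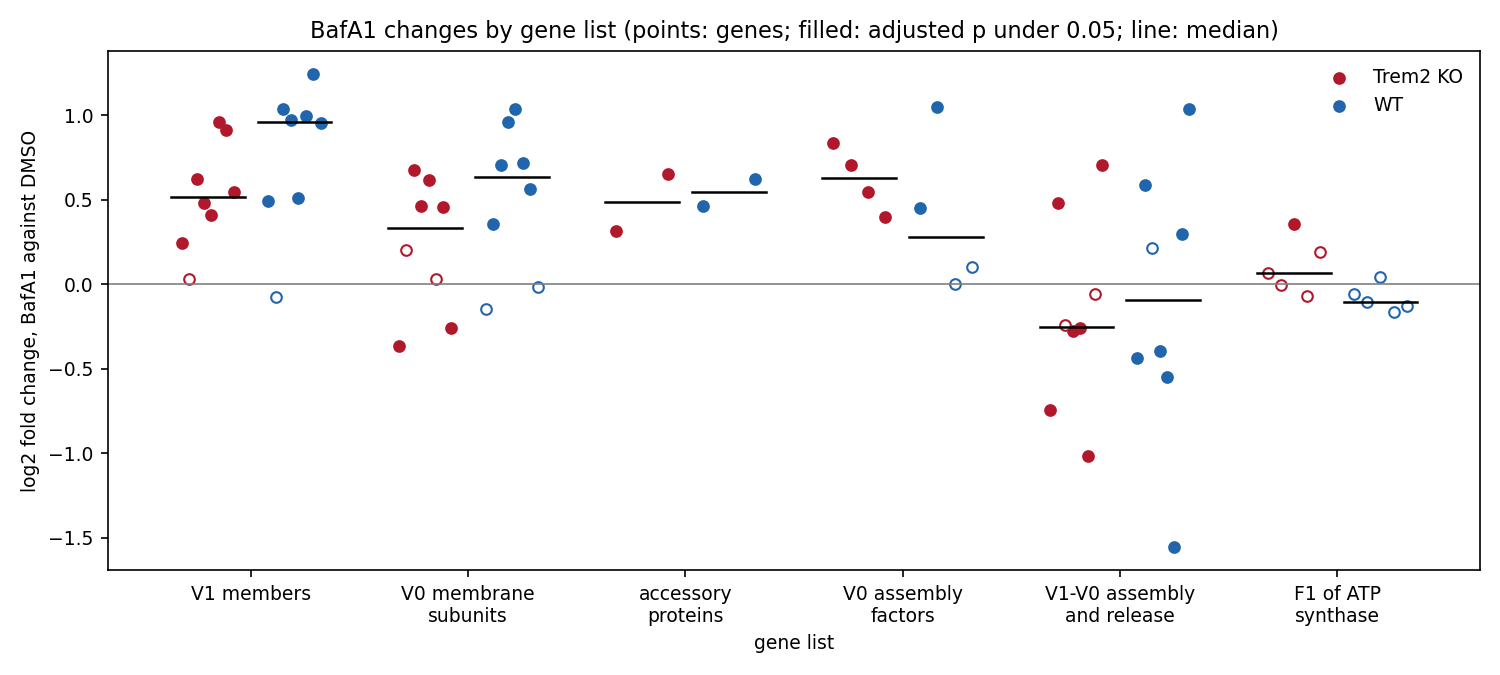
Log2 fold changes of single genes with BafA1 (vertical axis) for the V1 members and 5 gene lists, Trem2 KO left of WT in each, with filled points for genes that passed an adjusted p of 0.05 and a line at each median. The V1 median is 0.52 in Trem2 KO and 0.96 in WT, and those of the F1 genes of mitochondrial ATP synthase are 0.07 and -0.11.

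The pump's mitochondrial relative served as a contrast. Of 5 tested genes of the F1 sector, which makes ATP where V1 spends it, 1 rose with BafA1 in Trem2 KO (median 0.07), against 19.8% of all genes. That gene was Atp5c1, which encodes a part of the F1 rotor (0.36, edgeR adjusted p = 0.0013). In WT the 5 adjusted p lay between 0.18 and 0.66 (median -0.11), and no list can be called unchanged from that. Upstream of the lysosomal genes, transcripts of the factors themselves did not follow the V1 genes. Tfeb fell by 0.27 (adjusted p = 0.038), Tfe3 by 0.35 (0.0017) and Mitf by 0.80 (9.8e-08) with BafA1 in WT, and in Trem2 KO Mitf fell by 0.50 (adjusted p = 0.00011) while Tfeb (-0.19, 0.19) and Tfe3 (-0.20, 0.083) did not pass. RNA levels do not show whether these factors were in the nucleus.

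Genes of the folliculin and Rag pathway, which senses nutrients at the lysosome together with V1 and V0, were listed with these factors. Over the 16 genes, 6 rose and 1 fell in Trem2 KO, where 40.6% of all genes passed, and 9 rose and 3 fell in WT, where 46.9% passed. Their medians were 0.17 in Trem2 KO and 0.32 in WT. In Trem2 KO neither Flcn (0.03, edgeR adjusted p = 0.81) nor Fnip1 (0.16, 0.066) passed. Rragd, a Rag GTPase and a known target of TFEB, averaged 155 CPM ± 7.41 in Trem2 KO BafA1, 57.9 ± 10.3 in Trem2 KO DMSO, 83.9 ± 2.08 in WT BafA1 and 19.3 ± 1.27 in WT DMSO. Its response was 1.41 in Trem2 KO and 2.12 in WT, a difference of -0.71 (edgeR adjusted p = 0.0051). The response was also smaller in Trem2 KO for Flcn, which encodes folliculin (-0.64, adjusted p = 0.0055), and its partners Fnip2 (-0.59, 0.0021) and Fnip1 (-0.35, 0.03). These genes were already higher in Trem2 KO than in WT in DMSO, by 1.02, 0.54 and 0.51. Over the 16 genes, 7 were higher and 2 lower in that comparison, where 30.3% of all genes passed. Flcn averaged 79.0 CPM in Trem2 KO BafA1, 76.9 in Trem2 KO DMSO, 60.7 in WT BafA1 and 37.9 in WT DMSO.

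Across the 12 libraries, 7 members rose and fell together and Atp6v1b2 did not. Pearson's r of log2 CPM between pairs of members had a median of 0.91 over 28 pairs and was above 0 in 21, and the 7 pairs below 0 were those with Atp6v1b2, down to -0.64 with Atp6v1a. These points share the treatment and genotype groups. With group means removed, the median was 0.40, with 27 of 28 pairs above 0, and the highest was 0.89, between Atp6v1c1 and Atp6v1g1. That remainder includes the raised Trem2 KO DMSO replicate 2. Each value is a description over 12 libraries.

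The genes most like the V1 members were ranked by Pearson's r, over the 12 libraries, with the mean z-score of the 8 members among 5970 genes of at least 20 CPM. The first 10 were Ndrg1 and Sars (0.99 each), Rilpl2 (0.99), Psmd8 (0.99), Atg12 (0.99), Gch1, Pbdc1 and Tnfrsf26 (0.99 each), and Tceal9 and Atf5 (0.98 each). The members themselves were left out of this ranking: Atp6v1g1 and Atp6v1h had 0.99 each with the mean that includes them. Atp6v1e1 had 0.97, Atp6v1c1 0.96, Atp6v1d and Atp6v1f 0.94 each, Atp6v1a 0.85 and Atp6v1b2 -0.26. The mean is therefore not the pattern of Atp6v1b2. Of the V0 genes tested, Atp6v0d1 (0.98) and Atp6v0c (0.97) had the highest values and came below the first 10. Atp6v0b had 0.96, Atp6v0e 0.92, Atp6v0d2 0.77, Atp6v0a2 0.68, Tcirg1 0.02 and Atp6v0a1 -0.58. Psmd8, a proteasome lid subunit, averaged 1019 CPM ± 39.3 in Trem2 KO BafA1, 516 ± 14.5 in Trem2 KO DMSO, 942 ± 57.7 in WT BafA1 and 361 ± 8.50 in WT DMSO, and Atg12, an autophagy conjugation protein, averaged 216 ± 19.5, 133 ± 3.45, 194 ± 4.31 and 112 ± 4.56 CPM in those groups. With group means removed, the first 5 were Hilpda (0.95), Sars (0.93), Degs1 (0.92), Trnt1 (0.90) and Wdfy1 (0.90), so Sars, a seryl-tRNA synthetase gene, was in both rankings.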

How the data were processed

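RNA of 12 BMDM cultures was measured with a 3′ mRNA library kit that adds unique molecular identifiers, per the labels' protocols. Per the submitters' processing notes the tool was Salmon and the build GRCm39. Its version, the annotation and how duplicates were removed were not given in the sources used here. The authors deposited estimated counts per gene, not normalized, of which 42.0% of the values above 0 were not whole (tolerance 1e-06), and they were rounded here because the design had assumed whole counts. A deposited table of log2 CPM made by the authors was not used. The authors' gene table gave the symbols, and 148 of its features repeat one. RNA integrity numbers were 9.7 to 9.9, per the labels.

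Genes passing filterByExpr (minimum count 10, minimum total 15; 12052 genes) were fitted with edgeR 4.0.16 in R 4.3.3, with TMM factors, 1 model over the 12 libraries, a mean for each group, without a block. Errors of log2 fold changes follow from the F statistic, and 95% intervals use its degrees of freedom. P-values were adjusted over all genes at a threshold of 0.05 without any fold limit, and the common biological coefficient of variation was 0.080. Replicates differed by more than sampling noise (chi-square 2.24 to 5.96 per degree of freedom). Near-identical copies were aligned stretches of at least 75 bases and 95% identity between GENCODE transcripts. Likeness used log2 CPM with a prior count of 2. Named genes were all 8 members, any tested gene of the lists and the top of each likeness ranking. The members, lists and rules were chosen with earlier results of these data known. Counting error limits genes of few counts. Alternatives were RLE, upper-quartile and no factors, DESeq2 1.42.0, limma-voom (limma 3.58.1), no filter, 10 CPM in 3 libraries, a fit of just the groups compared, a replicate block, each library left out, and for shares the ratio to the median member. The test was also tried on simulated data, and no result above rests on that trial.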

Additional observations from a re-analysis of the deposited data

Results flagged for a closer look

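The response to BafA1 differed between the genotypes, by the interaction test, in 3 V1 genes. The log2 response in Trem2 KO minus that in WT was -0.42 for Atp6v1c1, -0.49 for Atp6v1d and -0.41 for Atp6v1h. All 3 genes rose in both genotypes, so the direction of the response was shared and its size differed. Atp6v1d passed without any single library, and the calls of Atp6v1c1 and Atp6v1h did not. In DMSO all 3 were already higher in Trem2 KO than in WT, by 0.72 for Atp6v1c1, 0.71 for Atp6v1d and 0.36 for Atp6v1h. In BafA1 the genotypes differed by 0.30 for Atp6v1c1 and 0.22 for Atp6v1d, again higher in Trem2 KO. Of these 2, only Atp6v1c1 kept that call without any single library. Atp6v1h (-0.04) did not pass in BafA1.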

How the results depend on the processing

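Of 872 member values over all alternatives, 832 kept direction and side of the threshold, 23 lost a call, 7 gained one and 10 changed sign. The cause of these changes was not tested, other than that a fit without a library has fewer samples and a fit without a filter tests more genes. No called value changed sign. Atp6v1f in Trem2 KO against WT changed sign in BafA1 with upper-quartile factors (0.0079), and in DMSO with library size alone (-0.017) and with no filter (-0.010). With single libraries left out it spanned -0.079 to 0.021 in BafA1 and -0.031 to 0.079 in DMSO, its difference of responses spanned -0.10 to 0.011, and Atp6v1b2 with BafA1 in Trem2 KO spanned -0.011 to 0.12. Left-out libraries moved the number of members called in Trem2 KO against WT in BafA1 between 1 and 4, with 1 without WT BafA1 replicate 1 and 2 without Trem2 KO BafA1 replicate 3. For the difference of responses, members called spanned 1 to 4, with 1 without WT DMSO replicate 2, WT BafA1 replicate 2 or Trem2 KO DMSO replicate 2. Genes called spanned 665 to 1193, with 665 without WT DMSO replicate 2 and 695 without Trem2 KO DMSO replicate 2. The number of members called with BafA1 was 7 in each left-out fit in WT and 6 or 7 in Trem2 KO. Atp6v1h lost its difference with library size alone (-0.39, adjusted p = 0.065), and with no filter Atp6v1d lost its call in Trem2 KO against WT in BafA1 (0.20, adjusted p = 0.16). With each member's log2 ratio to the median member in place of its share, 4 members passed for BafA1 and 4 for genotype.

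Groups share replicate numbers, but of 18 pairs of same-numbered libraries only 2 had a correlation of deviations over 0.1 (-0.11 to 0.16). Both were Trem2 KO BafA1 with Trem2 KO DMSO, where the third pair had 0.074, so the bar of every pair over 0.1 was not met, and whether these cultures share a pool is not known. The fit with a replicate block kept every member's call: 7 members passed with BafA1 in each genotype, 7 in Trem2 KO against WT in DMSO, 4 in BafA1 and 3 for the difference of responses.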
